A study of Mus musculus with 18 samples.

Results

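Glycolysis splits glucose into pyruvate in the cytosol through a fixed series of enzymes, most of which have several isozymes encoded by separate genes. Hexokinase traps glucose in the cell, phosphofructokinase makes the committed step, aldolase and triose-phosphate isomerase yield the triose that GAPDH oxidises, and phosphoglycerate kinase and pyruvate kinase make ATP. Fibroblasts in culture run the pathway at a high rate even with oxygen present, and GAPDH mRNA is a common reference in expression work. The 10 genes described here are a list of named enzymes of the pathway: Hk1 and Hk2 (hexokinases), Gpi1 (glucose phosphate isomerase), Pfkl and Pfkp (phosphofructokinases), Aldoa (aldolase), Tpi1 (triose-phosphate isomerase), Gapdh, Pgk1 (phosphoglycerate kinase) and Eno1 (enolase). They are 10 of the 55401 gene entries in the count tables, found by gene identifier, and all 10 passed the filter on low counts.

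The mRNA libraries came from NIH/3T3 cells, a line of mouse embryonic fibroblasts bought from ATCC. They fall into 3 from wild-type cells (WT) and 3 from XPO4 knockout cells (KO), in which CRISPR-Cas9 had left the same frameshifting deletion in the first exon of both copies of Xpo4, the gene of the nuclear export receptor exportin 4. The KO cells are 1 line, both genotypes grew in DMEM with serum and no other treatment, and nothing in the labels says that the replicates were separate cultures, so p-values measure only the spread between these libraries. The 12 circRNA libraries of the same cells (2 each of nucleus, cytoplasm and whole cell per genotype, digested with RNase R) were used only to look for circles at these genes.

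The 6 mRNA libraries held 16974062 to 22057323 counted read pairs, of which the 10 genes took 0.317% to 0.363%. All 9 fibroblast markers checked were above 1 CPM (the count scaled to the library's total) in every library, and of 10 blood markers, checked because the extraction text in the labels speaks of blood, 5 were at 0 throughout and 1 passed that level. Xpo4 itself did not check the labels: it had 657, 614 and 685 read pairs in WT and 712, 504 and 687 in KO, and its log2 fold change was 0.18 (edgeR adjusted p = 0.193; 0.34 and 0.000252 without KO replicate 2), counted over the whole gene and not the deleted part. In all 6 tables the header line names an alignment file of the other genotype while the output name fits the title. The titles were followed here, and every direction given below for mRNA would turn round if the headers were right, while those of the circRNA libraries would not. KO replicate 2 stood apart from the other KO libraries, with a chi-square per gene of 10.6 and 12.3 against them where they differed from each other by 3.68.

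WT and KO also differed by whole chromosomes. The 689 tested genes of chromosome 10 had a median log2 fold change of 0.45, with 455 called higher and 57 lower in KO, whereas the medians of the other 18 autosomes ran from -0.21 on chromosome 1 to 0.16 on chromosome 3. The Y-linked genes Ddx3y, Eif2s3y, Kdm5d and Uty had 0 read pairs in every WT library, and Ddx3y had 594, 506 and 511 in KO. With 1 KO line, the loss of Xpo4 and such differences between the lines cannot be told apart, and they are given beside the genes they touch.

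Levels were compared between genes as FPKM, read pairs per kilobase of annotated exon, scaled to the library's total count. In WT, Pgk1 was the highest of the 10 genes at 239.8 ± 10.6 FPKM (SD, n = 3), above Tpi1 at 177 ± 6.23. Aldoa at 166 ± 7.25 and Eno1 at 166 ± 5.24 followed, and neither was separated from its neighbour in the order beyond the spread of the libraries. Gpi1 lay at 88.3 ± 3.90 FPKM. A drop of 8.23 times then led to Hk2 at 10.7 ± 0.464, which overlapped Pfkl at 10.7 ± 0.450. Hk1 at 9.02 ± 0.384 and Gapdh at 7.88 ± 0.883 also overlapped, and Pfkp was lowest at 1.37 ± 0.109. The genes from Gpi1 and Aldoa down were thus the abundant transcripts and the 4 hexokinase and phosphofructokinase genes the scarce ones, except that Gapdh sat among the latter. In KO the order differed at 2 places. Aldoa at 228 ± 24.7 FPKM stood next to Pgk1 at 240.5 ± 10.7 with overlapping libraries, and Hk2 at 9.19 ± 0.910 lay below Pfkl, Hk1 and Gapdh, the last of which it overlapped. These orders depend on the length used, since FPKM divides by all annotated exon bases of a gene. Per base of the main transcript, Eno1 (439.5 ± 13.9 in WT), Aldoa (319.6 ± 14.0) and Tpi1 (302 ± 10.7) were above Pgk1 (295 ± 13.0), which fell from the first to the fourth place, and Gapdh (22.9 ± 2.57) was sixth.

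**Figure D1:**
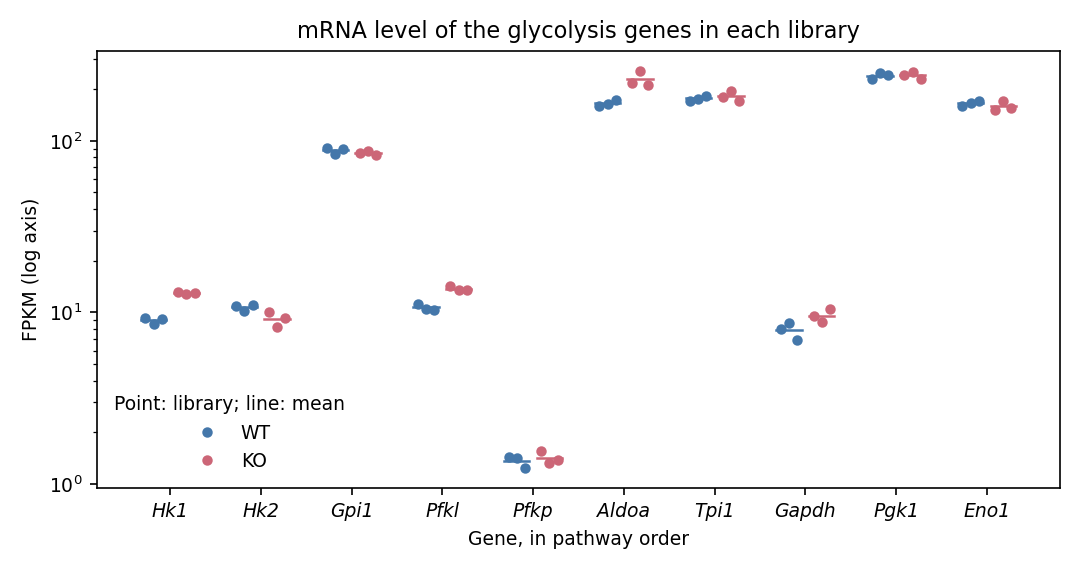
FPKM of the 10 genes in each of the 6 libraries, in pathway order, on a log axis; points are libraries, lines the mean of 3, blue WT and red KO. Gapdh lies between 6.94 and 10.4 FPKM in all 6 libraries, while Tpi1 and Pgk1 on either side of it in the pathway lie above 170 FPKM.

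Gapdh was far below the enzymes before and after it. Its gene (chr6:125161715-125166467, minus strand, mm10) had 657, 702 and 633 read pairs in WT and 701, 650 and 733 in KO. Tpi1 (chr6:124810586-124814296, minus strand), its nearest member on the same chromosome, had 9331, 9483 and 11105 read pairs in WT and 8882, 9646 and 7982 in KO. Pgk1 (chrX:106187100-106203699, plus strand) had 10186, 10909 and 11991 in WT and 9657, 10079 and 8734 in KO. The gap was present in every library. Gapdh FPKM divided by the geometric mean of Tpi1 and Pgk1 was 0.0405, 0.0415 and 0.0330 in WT and 0.0455, 0.0396 and 0.0528 in KO, a mean of 0.0422 ± 0.00660 (SD, n = 6), which is 23.7 times lower than the neighbours. The size of this gap also depends on the length used: it was 11.8 times per base of the main transcript. Per window that occurs only once in the genome it was 4.93 times, but the neighbours then lay far apart. By that measure the WT means were 165 for Gapdh, 338 for Tpi1 and 2381 for Pgk1. The gap was thus far smaller to Tpi1 than to Pgk1. All read pairs of a gene were divided by its unique windows, of which Pgk1 has 226 and Tpi1 1439.

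The genome holds many processed copies of Gapdh, and the count tables list them as genes of their own. In the reference genome (GRCm38.p6), 84.5% of the 150-base windows of the main Gapdh transcript, 150 bases being the read length, also occurred exactly somewhere else, at a median of 12 other places. All 850 windows of its coding sequence had such a copy, and 84 other loci carried an exact run of at least 100 bases. Pgk1 had a similar share of copied windows, 86.5%, with all 1102 of its coding windows among them, but from 3 loci, and Eno1 had 49.0% from 4. Tpi1 had 1.30%, and Hk1, Hk2, Gpi1, Pfkl, Pfkp and Aldoa had 0.

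The following coding sequences show the contrast between Gapdh and its neighbours; each is 150 bases long, 5′ to 3′ on the strand of the gene, from the GENCODE vM21 transcript, with the 50 bases that recur most often elsewhere in capitals.
Gapdh, coding bases 12 to 161: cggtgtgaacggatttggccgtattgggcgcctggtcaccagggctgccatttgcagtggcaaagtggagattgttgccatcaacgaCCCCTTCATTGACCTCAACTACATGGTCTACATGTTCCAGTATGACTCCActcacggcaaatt
Pgk1, coding bases 1 to 150: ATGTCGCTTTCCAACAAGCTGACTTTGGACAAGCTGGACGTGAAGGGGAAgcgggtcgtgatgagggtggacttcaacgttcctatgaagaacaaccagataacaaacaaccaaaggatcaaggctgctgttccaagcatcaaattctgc
Tpi1, coding bases 567 to 716: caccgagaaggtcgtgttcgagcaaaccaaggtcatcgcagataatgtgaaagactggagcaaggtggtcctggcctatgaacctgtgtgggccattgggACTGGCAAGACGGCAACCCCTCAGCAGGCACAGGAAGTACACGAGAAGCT
The whole Gapdh stretch occurred at 10 other places on 7 chromosomes and its capitals at 66. The Pgk1 stretch and its capitals occurred at 2 other places. The Tpi1 stretch occurred nowhere else, and its capitals occurred at 1 other place.

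Read pairs listed under Gapdh copies far outnumbered those under Gapdh. Of 83 annotated pseudogene copies, 71 had at least 1 read pair, with sums of 13074, 12940 and 14995 across the WT libraries and of 11041, 13001 and 11144 across the KO libraries. All 6 together give 76195, against 4076 for Gapdh itself. One processed pseudogene, Gm13394 on chromosome 2 (copied stretch chr2:28933430-28934652), held 69358 of them. Its stretch shares 1222 of 1223 bases with the Gapdh transcript in exact runs of at least 100 bases. Gm5559 on chromosome 5, which also shares 1222 of 1223 bases, held 4102. Such a match is not particular to these copies: Gm12033 on chromosome 11 had 1222 matched bases too. The third largest count was 466, under Gm12070. Eno1 had the same feature to a lesser degree: 4 annotated copies held 65889 read pairs against 99958 for Eno1, most of them under Eno1b (36353) and Gm4735 (29059). Eno1b is annotated as protein-coding and is also among the other glycolytic isozymes below. The protein-coding Gapdh copies Gm10358 and Gm3839 were not among the 83 and were not added to Gapdh. Pgk1 copies held 248 read pairs against 61556 for the gene, and Tpi1 copies 1145 against 56429. When the reads of these copies were added to each gene, Gapdh stood at 0.810 ± 0.0346 of the geometric mean of Tpi1 and Pgk1 (SD, n = 6), and its own entry made up 5.08% of the sum. The 0.810 divides by all annotated exon bases. Without the copies, dividing by the main transcript instead moved the value from 0.0422 to 0.0846. With the copies, Gapdh had more read pairs than Tpi1 and Pgk1 in every library, for example 13731 against 9502 and 10205 in WT replicate 1. Its main transcript, at 1420 bases, is shorter than theirs (1607 and 1825). Per base of the main transcript, Gapdh with its copies was thus above both neighbours. Whether it lies below or above them therefore depends on the length used. Whether the reads listed under Gm13394 came from Gapdh mRNA was not tested, since the tables hold counts and not reads.

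**Figure D2:**
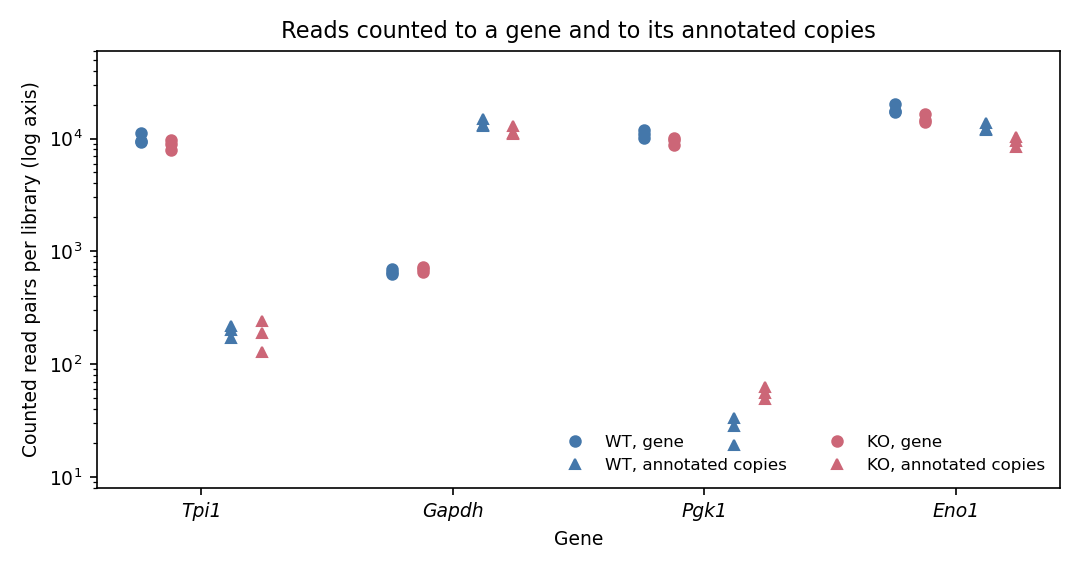
Read pairs counted to Tpi1, Gapdh, Pgk1 and Eno1 (circles) and to the annotated copies of each (triangles) in every library, on a log axis. For Gapdh the copies lie above the gene in all 6 libraries (11041 to 14995 against 633 to 733), and for Tpi1 and Pgk1 the gene lies above its copies.

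Between the genotypes, 5 of the 10 genes passed the test (edgeR quasi-likelihood, Benjamini-Hochberg adjusted p under 0.05 over all 14688 genes tested), 4 higher and 1 lower in KO. That share is near the background, since 48.7% of all tested genes passed the test, 25.1% as higher and 23.6% as lower in KO. Of the 6626 tested genes with a log2 CPM of at least 5, which all members but Pfkp reach, 58.1% passed. The changes of the 10 genes were small: their median absolute log2 fold change was 0.14 against 0.28 over all tested genes, and 26.4% of all tested genes changed by more than the largest of them. The signed median was 0.05 against 0.00 over all tested genes. The 4 that rose were Hk1, Aldoa, Pfkl and Gapdh, and the 1 that fell was Hk2. Without KO replicate 2 these 5 were called in the same directions and Eno1 was called as well, with log2 fold changes of 0.52 for Hk1, 0.37 for Pfkl, 0.34 for Gapdh and -0.15 for Hk2. In bulk RNA, a change in every cell and a change in the share of cells that express a gene cannot be told apart.

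At the first step, the hexokinases moved in opposite directions. Hk1 (chr10:62268855-62379908, minus strand), the form found in most tissues, had 9.28, 8.58 and 9.21 FPKM in WT and 13.1, 12.9 and 12.9 in KO. The genotypes did not overlap, and Hk1 rose by a log2 fold change of 0.52 (standard error 0.06, edgeR adjusted p = 5.33e-06). Hk2 (chr6:82725025-82774454, minus strand), the insulin- and growth-responsive form, had 10.9, 10.2 and 11.1 FPKM in WT and 10.0, 8.22 and 9.32 in KO. These also did not overlap, but by a narrow margin, and the log2 fold change was -0.23 (standard error 0.07, edgeR adjusted p = 0.0194). The call of Hk2 was lost without WT replicate 1 (adjusted p = 0.0575) or without WT replicate 3 (adjusted p = 0.0814). The log2 ratio of Hk2 to Hk1 FPKM was 0.23, 0.25 and 0.27 in WT and -0.39, -0.65 and -0.47 in KO, so that Hk2 was above Hk1 in FPKM in each WT library and below it in each KO library. Which of them was higher in WT depends on the length: per base of the main transcript Hk1 was above Hk2 in both genotypes (19.99 ± 0.851 against 11.6 ± 0.502 in WT, 28.7 ± 0.279 against 9.94 ± 0.985 in KO). The difference between genotypes in the log2 ratio, which length does not change, was -0.75 (two-sided exact permutation p = 0.1, the smallest that 3 against 3 allows, and 0.15 after adjustment over the 3 ratios compared).

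Gpi1, which converts glucose 6-phosphate to fructose 6-phosphate (chr7:34201330-34230336, minus strand), had 91.4, 84.0 and 89.6 FPKM in WT and 85.1, 87.0 and 82.7 in KO. The libraries overlapped and the log2 fold change was -0.06 (95% interval -0.17 to 0.06, edgeR adjusted p = 0.391).

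Of the phosphofructokinases, the liver-type gene changed and the platelet-type gene did not pass the test. Pfkl (chr10:77986947-78010083, minus strand) had 11.2, 10.5 and 10.4 FPKM in WT and 14.2, 13.6 and 13.5 in KO. Every KO library was above every WT library, with a log2 fold change of 0.36 (standard error 0.06, edgeR adjusted p = 0.000173). Pfkp (chr13:6579768-6648777, minus strand) had 1.44, 1.42 and 1.24 FPKM in WT and 1.56, 1.32 and 1.38 in KO, resting on 313 to 383 read pairs a library. Its log2 fold change was 0.05 (95% interval -0.15 to 0.26, edgeR adjusted p = 0.662), and 5.58% of its exon bases are shared with Pitrm1. The log2 ratio of Pfkp to Pfkl was -2.96, -2.89 and -3.06 in WT and -3.18, -3.36 and -3.29 in KO, a difference of -0.31 with no overlap (two-sided exact permutation p = 0.1, adjusted p = 0.15).

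Hk1 and Pfkl are the only genes of the 10 on chromosome 10. Of 54 tested genes within 5 Mb of Hk1, 44 were called higher and 4 lower in KO, with a median log2 fold change of 0.48 that lies inside the 95% interval of Hk1 (0.40 to 0.64). Of 177 tested genes within 5 Mb of Pfkl, 122 were higher and 14 lower, and their median of 0.49 was above the interval of Pfkl (0.24 to 0.48). Around Hk2 on chromosome 6, 9 of 85 were higher and 31 lower with a median of -0.13, inside the interval of Hk2 (-0.38 to -0.07). The calls of Hk1 and Pfkl thus stood beside a shift of their whole chromosome, whose part in them was not tested.

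Aldoa rose without such a shift around it. The gene of the main muscle and fibroblast aldolase (chr7:126795234-126800751, minus strand) had 160.1, 164 and 174 FPKM in WT and 216, 256 and 211 in KO. Its log2 fold change was 0.46 (standard error 0.07, edgeR adjusted p = 0.000199). The 128 tested genes within 5 Mb had a median of 0.03, below its 95% interval of 0.30 to 0.62. KO replicate 2 gave the highest value, and without it the log2 fold change was 0.37 (edgeR adjusted p = 5.94e-08).

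Tpi1 had 170.4, 176 and 183 FPKM in WT and 181, 195 and 171 in KO. These overlapped, and the log2 fold change was 0.05 (95% interval -0.09 to 0.18, edgeR adjusted p = 0.561). Of the 113 tested genes within 5 Mb, 15 were higher and 42 lower, with a median of -0.20 that lies below this interval.

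Gapdh had 7.99, 8.70 and 6.94 FPKM in WT and 9.52, 8.77 and 10.4 in KO. The lowest KO library was just above the highest WT library, and the log2 fold change was 0.28 (standard error 0.09, edgeR adjusted p = 0.0190). Of the 109 tested genes within 5 Mb, 14 were higher and 40 lower. Their median of -0.20 lies below the 95% interval of Gapdh (0.09 to 0.47). The call of Gapdh depended on single libraries and on the copies. It was lost without WT replicate 3 (log2 fold change 0.20, adjusted p = 0.102) and without KO replicate 3 (0.23, adjusted p = 0.0677). With the reads of its annotated copies added before the fit, a setting chosen after seeing the data, Gapdh had 13731, 13642 and 15628 read pairs in WT and 11742, 13651 and 11877 in KO, and its log2 fold change was 0.01 (95% interval -0.12 to 0.14, edgeR adjusted p = 0.861). Gm13394 alone had a log2 fold change of -0.01 (edgeR adjusted p = 0.928). The log2 ratio of Gapdh to the geometric mean of Tpi1 and Pgk1 was -4.62, -4.59 and -4.92 in WT and -4.46, -4.66 and -4.24 in KO. The genotypes overlapped, and the difference of 0.26 did not pass the test (two-sided exact permutation p = 0.3, adjusted p = 0.3); with the copies added it was -0.02.

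Pgk1 and Eno1 did not pass the test. Pgk1 had 228, 249 and 242 FPKM in WT and 241, 251 and 229 in KO, with a log2 fold change of 0.00 (95% interval -0.12 to 0.13, edgeR adjusted p = 0.976). Eno1 (chr4:150236721-150248879, plus strand) had 160.4, 166 and 171 FPKM in WT and 152, 171 and 154 in KO, with a log2 fold change of -0.06 (95% interval -0.19 to 0.07, edgeR adjusted p = 0.427). Without KO replicate 2, Eno1 passed the test as lower in KO (log2 fold change -0.11, edgeR adjusted p = 0.0246). Its copy Gm4735 was lower in KO at -0.29 (edgeR adjusted p = 0.00289), and with the copies added Eno1 stood at -0.11 (edgeR adjusted p = 0.125).

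**Figure D3:**
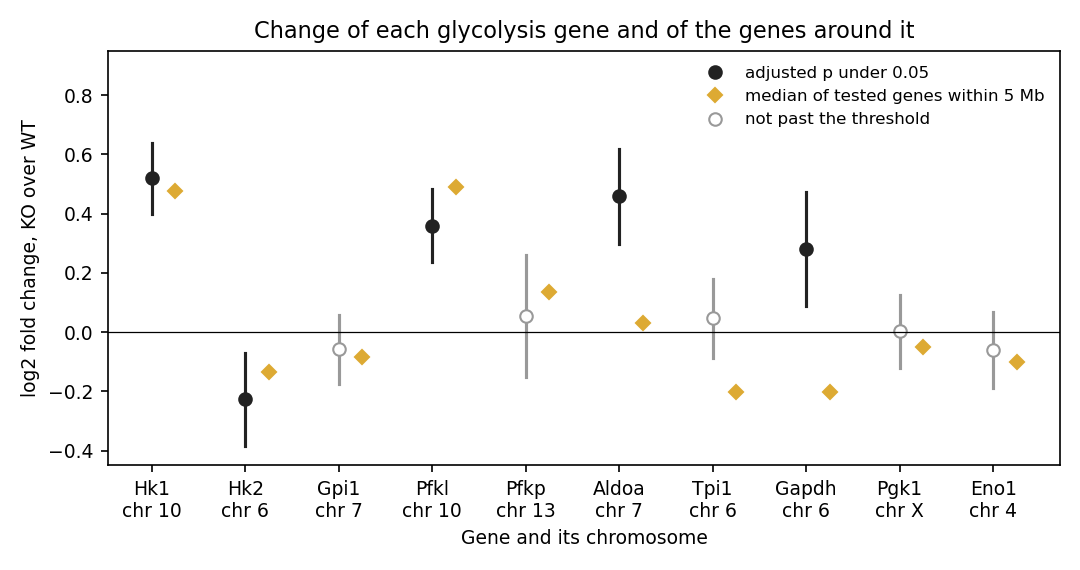
Log2 fold change (KO over WT) of each gene with its 95% interval from the edgeR fit; filled points passed the adjusted threshold, open points did not, and diamonds give the median of the tested genes within 5 Mb. Hk1 and Pfkl on chromosome 10 stand beside medians of 0.48 and 0.49, while Aldoa at 0.46 stands beside a median of 0.03.

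Over 6 libraries, the genes whose centred log2 CPM lay nearest to those of Gapdh, of 6576 genes with a mean of at least 5, were Dip2c, Sowahc, Uxs1, Dennd4a and Steap2, with root mean square differences of 0.0483 to 0.0622. None of the other members that reached this level was among them. Pfkp, at a mean of 18.3 CPM in WT and 19.0 in KO, lay below the level and was not compared.

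One circRNA lay inside the 10 genes, and it came from Hk1. It spans chr10:62286348-62290393 and joins exons 13 to 14 of the 22 exons of the main transcript, 539 bases when spliced, with both ends on annotated exon edges and with AG before and GT after it. The join, with the last 20 bases of exon 14 in lower case and the first 20 bases of exon 13 in capitals, reads as follows, 5′ to 3′ on the minus strand of GRCm38.p6.
Hk1 circle junction: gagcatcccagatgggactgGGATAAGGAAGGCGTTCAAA
The cytoplasm libraries gave it 33 and 29 reads for WT and 1 and 1 for KO. As shares of all junction reads these are 0.0424% and 0.0354% for WT against 0.00198% and 0.00158% for KO. The circle was not listed in the 4 whole-cell or the 4 nuclear libraries, although the whole-cell libraries held 50341 to 58165 junction reads. A circle that is not listed may still have had reads. The authors merged circRNAs found in both replicates, and each KO nuclear list held 1101 circles, at 3743 and 4383 junction reads. Whether the lists were filtered across replicates was not tested. Hk1 mRNA was higher in the KO libraries by their titles, while its circle had fewer reads there. No test was made of the circle. The other 9 genes had no circle listed in any of the 12 libraries.

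**Figure D4:**
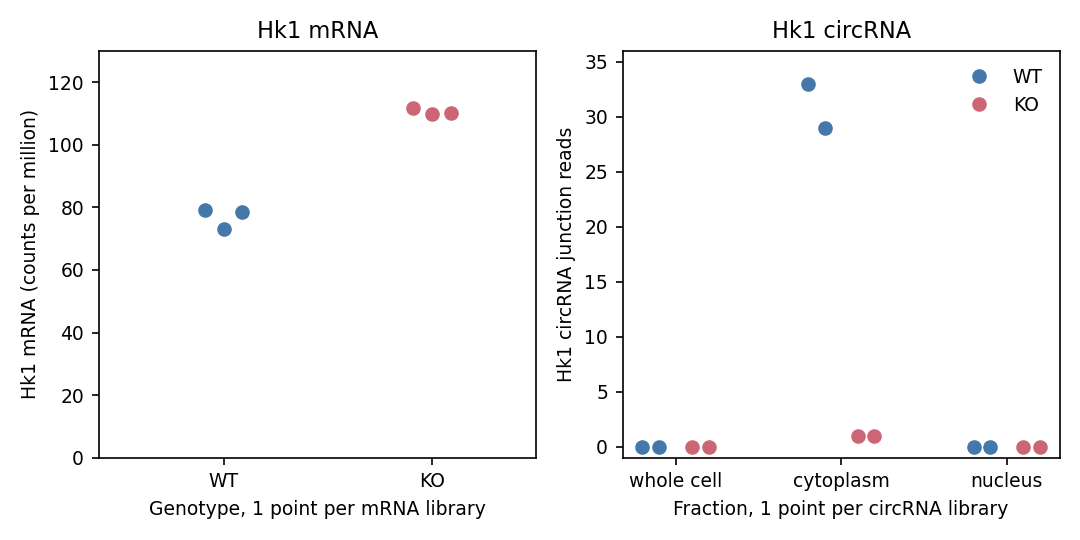
Left, Hk1 mRNA in CPM in the 3 WT and 3 KO mRNA libraries; right, junction reads of the Hk1 circRNA in the 12 circRNA libraries by fraction, with 0 for a library that does not list it. The mRNA is higher in every KO library, and the circle has 33 and 29 reads in WT cytoplasm against 1 and 1 in KO.

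For the other enzymes of the pathway and the lists below, the share of all tested genes called was 48.7%. Of 16 other glycolytic isozyme genes 10 were tested; 2 rose, 0 fell and 8 did not pass the test, with a median log2 fold change of 0.03. The neuronal-type enolase Eno2 rose from 127 ± 1.60 to 143 ± 3.68 CPM (log2 fold change 0.16, edgeR adjusted p = 0.0212) and the muscle-type Eno3 from 19.9 ± 1.25 to 24.4 ± 1.67 (0.29, edgeR adjusted p = 0.0126). Eno2 lost the call when any 1 WT replicate was left out (adjusted p = 0.0543 to 0.0807), and Eno3 without WT replicate 3 (adjusted p = 0.0543). Pkm (pyruvate kinase), at 406 ± 4.68 FPKM in WT, had a log2 fold change of -0.06 (95% interval -0.17 to 0.04, edgeR adjusted p = 0.307). Pgam1 (phosphoglycerate mutase) stood at 0.03 (95% interval -0.09 to 0.14, edgeR adjusted p = 0.709).

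Among 11 tested genes of glucose entry and lactate handling, 4 rose, 1 fell and 6 did not pass, with a median of 0.18. The basal glucose transporter Slc2a1 rose from 144 ± 2.51 to 177 ± 6.88 CPM (log2 fold change 0.30, edgeR adjusted p = 0.000505). Slc2a8, an intracellular glucose transporter, rose by 0.28 (adjusted p = 0.0218), a call lost without WT replicate 2, WT replicate 3 or KO replicate 1 (adjusted p = 0.0508 to 0.0977). Ldhb, the lactate dehydrogenase subunit of oxidative tissue, rose by 0.45 (adjusted p = 0.000122). Bsg, the partner protein of the lactate transporters, rose by 0.59 (adjusted p = 5.86e-06), and it lies on chromosome 10. The lactate transporter Slc16a1 was lower at -0.34 (adjusted p = 0.000555). Ldha stood at -0.10 (95% interval -0.23 to 0.03, edgeR adjusted p = 0.185) and was lower past the threshold only without KO replicate 2 (adjusted p = 0.00313).

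Of 14 tested genes of pyruvate entry into mitochondria and of pyruvate dehydrogenase and its control, 6 rose, 5 fell and 3 did not pass, with a median of 0.00. Pdk4, a kinase that switches off pyruvate dehydrogenase, rose from 11.7 ± 1.14 to 45.4 ± 2.42 CPM (log2 fold change 1.95, edgeR adjusted p = 1.00e-09), while Pdk1 of the same kinase family was lower at -0.38 (adjusted p = 0.000265). Pdp1, a phosphatase that switches the complex on, rose from 25.8 ± 0.697 to 60.3 ± 1.57 (log2 fold change 1.23, edgeR adjusted p = 5.60e-09). The second phosphatase gene Pdp2 was lower at -0.42 (adjusted p = 0.00192), as was Pdpr, which encodes the regulatory subunit of the phosphatase, at -0.83 (adjusted p = 0.00171). Mpc2, a subunit of the mitochondrial pyruvate carrier, rose by 0.49 (adjusted p = 6.99e-05). Kinases and phosphatases of the complex thus each held members that rose and members that fell.

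Of 8 tested genes of the PFKFB enzymes and gluconeogenesis, 2 rose, 4 fell and 2 did not pass, with a median of -0.20. Pfkfb3, which makes the activator of phosphofructokinase, fell from 13.6 ± 2.43 to 7.36 ± 0.293 CPM (log2 fold change -0.88, edgeR adjusted p = 0.000163), while Pfkfb4 rose from 7.93 ± 0.120 to 11.4 ± 0.564 (0.51, edgeR adjusted p = 0.00171). Pck2, the mitochondrial phosphoenolpyruvate carboxykinase, fell from 161 ± 2.71 to 88.3 ± 1.07 (log2 fold change -0.87, edgeR adjusted p = 2.54e-08). Pyruvate carboxylase Pcx was lower at -0.39 (adjusted p = 0.00042) and the phosphatase gene G6pc3 higher at 0.38 (adjusted p = 0.00309). In the pentose phosphate branch 1 of 8 tested genes rose, 2 fell and 5 did not pass, with a median of -0.08. G6pdx, which opens the branch, stood at -0.21 (adjusted p = 0.00868), Pgd, the next dehydrogenase, at -0.25 (adjusted p = 0.0014) and the transaldolase Taldo1 at 0.23 (adjusted p = 0.0226). The call of G6pdx was lost without KO replicate 1 (adjusted p = 0.0589) and that of Taldo1 without WT replicate 1 (adjusted p = 0.105).

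Of 13 tested HIF and MYC regulators, which control transcription of glycolytic genes, 3 rose, 5 fell and 5 did not pass, with a median of -0.09. Myc fell from 134 ± 6.73 to 74.0 ± 0.870 CPM (log2 fold change -0.86, edgeR adjusted p = 5.41e-08). Mycn, a relative of Myc, had 2, 1 and 4 read pairs in WT and 38, 25 and 15 in KO and passed the test (edgeR adjusted p = 9.45e-05). Mxi1, an antagonist of MYC, was lower at -0.52 (adjusted p = 0.000108). Hif1a stood at -0.09 (95% interval -0.20 to 0.03, edgeR adjusted p = 0.209). Egln1, the oxygen-sensing hydroxylase that marks HIF for destruction, rose by 0.61 (adjusted p = 3.25e-06). Of the HIF partners, Arnt was higher at 0.24 (adjusted p = 0.00995; 0.0547 without KO replicate 1) and Arnt2 lower at -0.31 (adjusted p = 0.00252).

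HIF targets outside glycolysis moved both ways: of 14 tested, 4 rose, 5 fell and 5 did not pass, with a median of -0.21. The peptide hormone gene Adm rose from 9.98 ± 0.900 to 23.2 ± 2.15 CPM (log2 fold change 1.21, edgeR adjusted p = 7.82e-07). P4ha1, a collagen prolyl hydroxylase subunit, rose by 0.61 (adjusted p = 1.40e-06), and Ddit4, an mTORC1 inhibitor, by 0.24 (adjusted p = 0.0109). Ndrg1, a stress-responsive gene, fell from 97.9 ± 1.76 to 35.4 ± 1.44 (log2 fold change -1.47, edgeR adjusted p = 5.12e-10). The histone demethylase Kdm3a was lower at -0.72 (adjusted p = 6.54e-07), and the angiogenic factor Vegfa at -0.46 (adjusted p = 1.40e-05). P4ha1 and Ddit4 lie on chromosome 10, as do Hk1, Pfkl and Bsg. All 5 tested genes of these lists on that chromosome were called higher in KO, whereas of the 83 elsewhere 21 were higher and 23 lower.

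**Figure D5:**
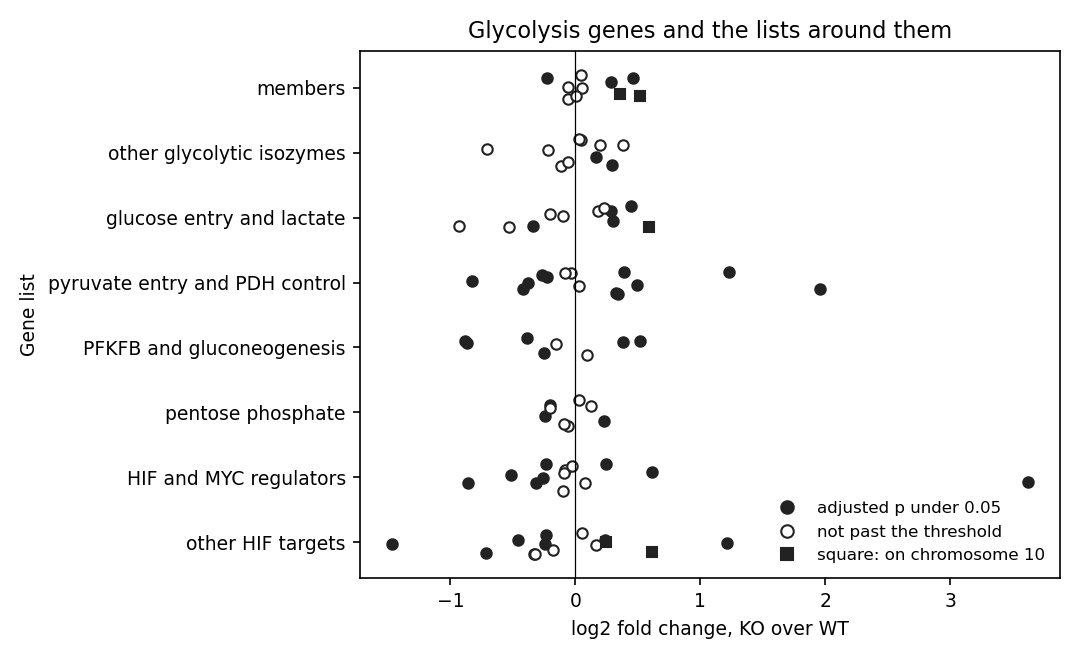
Log2 fold change (KO over WT) of every tested gene of the 10 members and of the 7 lists around them; filled symbols passed the adjusted threshold, open ones did not, and squares mark chromosome 10. The members lie between -0.23 and 0.52, while Pdk4 reaches 1.95 and Ndrg1 -1.47; the point at 3.62 is Mycn, which has 1 to 4 read pairs in WT.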

How the data were processed

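The authors sequenced 150-nt paired-end reads of rRNA-depleted total RNA and deposited, per mRNA library, featureCounts (v2.0.0) counts of read pairs per gene with exon coordinates and summed exon length; per the labels, alignment used HISAT2 and mm10. Per the file headers, featureCounts ran on exons by gene without strand and without options for multi-mapping or overlapping reads, so copied or overlapping sequence can lower a gene's count. The deposited circRNA tables hold junction read counts per circle.

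Identifiers were matched to symbols by version (54349) or stem (792), leaving 260; a second identifier with the symbol Aldoa (26 to 55 read pairs) was left apart. Genes kept by filterByExpr (14688) were tested with edgeR 4.0.16 (TMM, glmQLFit, glmQLFTest, Benjamini-Hochberg threshold 0.05); the script was checked on simulated counts. FPKM used total counts. Exact copies were sought in GRCm38.p6 on both strands. Alternatives were DESeq2 1.42.0, other scalings, no filter, a replicate block and leaving out each library. The members and lists were chosen with earlier results of these data known. Named were all members, Xpo4, Pkm, Ldha, Pgam1, Slc2a1, Hif1a and Myc, and of each list every called gene or, above 5, the 3 largest folds each way, plus the 5 genes most like Gapdh. The 10 genes had 313 to 20277 read pairs a library. Counts alone did not set the precision: Aldoa, with 9267 to 13380 read pairs, had a standard error of 0.07. Hk1, with 1430 to 1991, had 0.06.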

Additional observations from a re-analysis of the deposited data

Results flagged for a closer look

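One circRNA of Hk1 and one of Ldha were signals in the circRNA libraries, which the comparison of mRNA does not use, above their level in the other genotype. The Hk1 circle reached 33 junction reads in WT cytoplasm replicate 1 and 29 in replicate 2, against 1 and 1 in KO cytoplasm. Lactate dehydrogenase Ldha, which is not one of the 10 genes, had a circle at chr7:46850178-46851058 with both ends on annotated exon edges, and it reached 12 junction reads in WT whole-cell replicate 1 and 9 in replicate 2, against 1 and 2 in KO whole cell. The Ldha circle was not listed in the nuclear and cytoplasmic libraries. The differences between genotypes were not tested, and the circRNA tables list only circles with at least 1 read.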

How the results depend on the processing

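The number of the 10 genes called (5) was 5 under other size factors, total count scaling, no filter, DESeq2 and the replicate block. It was 4 with the reads of pseudogene copies and Eno1b added, and 3 to 6 when 1 library was left out. The lowest came without WT replicate 3. Calls of other glycolytic isozymes (2) ran from 0 (without WT replicate 3) to 4 (without KO replicate 2). Of the members' fold changes, only those near 0 turned sign, and none of these passed the test on either side: leaving out 1 library gave Pfkp from -0.0104 (without WT replicate 3) to 0.106, Tpi1 from -0.00670 (without KO replicate 2) to 0.101 and Pgk1 from -0.0349 (without WT replicate 1) to 0.0456. With the reads of the copies added, the log2 ratio of Gapdh to Tpi1 and Pgk1 reversed to -0.0150 (two-sided exact permutation p = 0.9), and the level of Gapdh relative to them, 0.0422, was 0.810 by annotated exon length. Without those reads it was 0.203 per unique window, where Tpi1 and Pgk1 lay far apart (338 and 2381 in WT). Per main transcript length the level of Gapdh was 0.0846, and leaving out 1 library moved the 0.0422 to between 0.0400 and 0.0440. Of the 10 ranks of FPKM in WT, 4 stayed per unique window, where Pgk1 was first, and 2 per main transcript length, where Eno1 was first. The replicate numbers did not pair the libraries (same-number correlations 0.11, 0.07 and -0.13). The replicate block gave 7124 called genes in place of 7151. In the block the exact permutation p was 0.25 for the Hk2 to Hk1 difference of -0.75 and 0.25 for the Pfkp to Pfkl difference of -0.31. That is the smallest value the block allows, so it does not show weaker support. For the Gapdh difference of 0.26 it was 0.5. The block changed no call among the 10 genes. Pfkp, with 313 read pairs in its lowest library, had the widest interval of the 10 genes.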
